A study of Mus musculus with 4 samples.

Results

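The Rab genes, which encode the largest family of Ras-like small GTPases, were chosen by symbol alone, as Rab followed by a number and an optional letter and digit. This gave 59 of the 55453 genes in the count table. They were measured by sequencing of poly(A)-selected RNA from mouse oocytes at the germinal vesicle stage, the arrest in meiotic prophase before maturation. Control oocytes, with the genotype given as WT (2 libraries), were compared with oocytes of the genotype Parp12 knockdown (2 libraries), to ask how the transcriptome differs when this ADP-ribosyltransferase is reduced. Oocytes of all 4 libraries are labelled as taken straight from the ovary. How the knockdown was made, what the controls received, the age and strain of the mice and the number of oocytes in a library: not given in the sources used here. Replicates are not tied by the labels to different animals or collection days, and p-values therefore measure the spread between these libraries, which may be technical.

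Rab proteins are small GTPases of the Ras superfamily that mark the membranes of vesicles and organelles and direct their transport, tethering and fusion. Each switches between a GDP-bound form, held in the cytosol by a chaperone, and a GTP-bound form that sits on a membrane and recruits effector proteins. Guanine nucleotide exchange factors (GEFs) switch a Rab on and GTPase-activating proteins (GAPs) switch it off. In oocytes Rab proteins serve the vesicles that drive the actin network and spindle positioning, and the cortical granules that are released at fertilisation.

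Library totals ran from 35805122 to 45230773 counts. Taking 3 counts as the limit of a 0, a gene without counts can have had up to 0.0663 CPM in the deepest library and 0.0838 CPM in the shallowest, where CPM are counts per 1000000 of a library. The targeted gene Parp12 had 14279 and 9419 counts (controls) and 32 and 86 counts (knockdowns), which matched the labels, a log2 fold change of -7.51 (SE 0.34). All 12 oocyte markers had counts. Their sum was 24903 and 25540 CPM (controls) and 26174 and 26829 CPM (knockdowns), so the groups did not overlap. Of these markers 8 had a log2 fold change above 0 and 4 below, and edgeR called none. The sum of 15 granulosa and cumulus markers was 471 and 432 CPM (controls) and 394 and 458 CPM (knockdowns), most of it from Serpine2, and the groups overlapped. Of these markers 6, among them Amh, Amhr2 and Foxl2, had no counts in any library. Theca and stroma markers summed to between 2.40 and 6.45 CPM. Of 7 blood and endothelium markers 5 had counts. Their sum was 99.5 and 102.4 CPM (controls) and 100.9 and 94.0 CPM (knockdowns).

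Germinal vesicle oocytes held messenger RNA of most of the Rab family. Counts were present for 51 of the 59 genes, and 41 had counts in all 4 libraries. The family took 0.340% and 0.350% of the controls' counts and 0.339% and 0.341% of the knockdowns', so the groups differed by less than the controls did from each other. The 8 genes at 0 in all 4 libraries were Rab6b, Rab15, Rab19, Rab26, Rab27b, Rab33a, Rab39 and Rab42. Rab27b is the second member of the Rab27 pair, which tethers secretory granules. Where a library holds RNA of several cells, fewer cells that express a gene and less RNA per cell cannot be told apart.

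Levels are compared between genes as CPM per kilobase of exon, averaged over the 4 libraries. Rab38, known for its role in melanosomes and other lysosome-related organelles, was the highest member at 147 CPM per kilobase, which ranked it 279th among all genes. Its libraries were close together, at 149 and 145 CPM per kilobase (controls) and 149 and 146 (knockdowns). Rab7, which directs late endosomes to lysosomes, stood at 155 and 135 CPM per kilobase (controls) and 138 and 144 (knockdowns), a range that takes in that of Rab38.

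Next in order of level came Rab5c of the early endosome at a mean of 93.8 CPM per kilobase, Rab2a of the route between endoplasmic reticulum and Golgi at 75.3, and Rab3d of regulated secretion at 74.2. The 5 highest genes took between 48.6% and 51.4% of the family's summed level in a library. Rab10 (63.7), Rab11a (61.2), Rab35 (46.2), Rab1b (41.0), Rab6a (40.4), Rab4a (32.8) and Rab21 (29.5 CPM per kilobase) completed the 12 highest, which together held between 78.0% and 79.5%. Several neighbours in this order, such as Rab2a and Rab3d or Rab1b and Rab6a, overlapped with each other across libraries, and do not differ beyond that spread. Over the 59 genes, levels in any pair of libraries correlated with a Spearman coefficient from 0.956 to 0.982. This describes genes that share libraries and depth, and no p is attached to it.

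**Figure D1:**
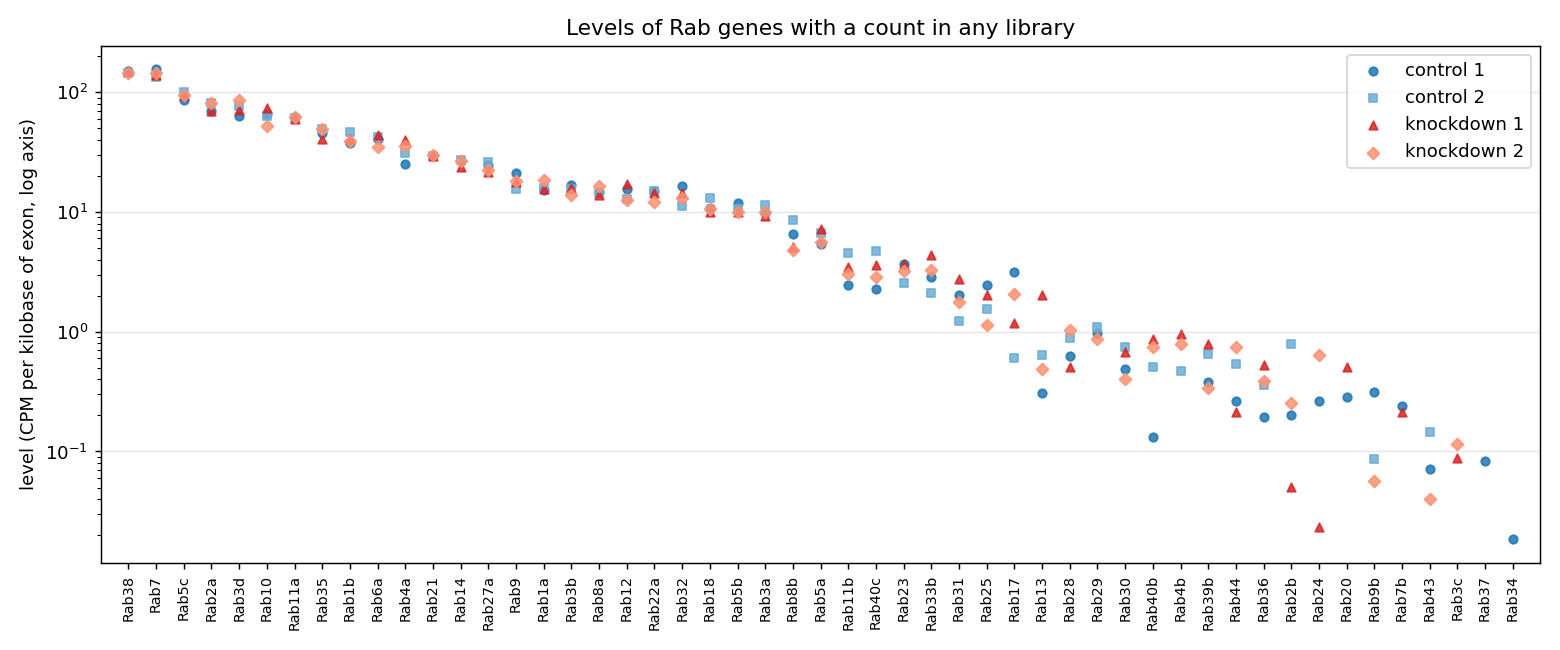
Level of each of the 51 Rab genes with a count, in CPM per kilobase of exon on a log axis, ordered by mean level, with a symbol for each library (values of 0 are not drawn). Rab38 and Rab7 lead at 147 and 143 CPM per kilobase, and the 4 libraries spread further apart towards the scarce genes on the right.

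By the compartment that each Rab is known for, late endosome and lysosome genes held the most of the family's per-kilobase level, between 28.4% and 32.3% in a library, through Rab38 and Rab7. Genes of the endoplasmic reticulum and Golgi held 16.7% to 18.7%, recycling endosome genes 15.8% to 16.8% and early endosome genes between 14.1% and 15.03%. Regulated secretion held 10.8% to 12.5%, and genes for delivery to the plasma membrane, junctions and the cilium held 8.45% to 10.8%. For each of these compartments the range of the knockdown libraries overlapped that of the controls.

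Rab38 differs from most of the family in the codons for the conserved stretch around the catalytic glutamine, which contacts the terminal phosphate of GTP. Complete coding transcripts were found in GENCODE vM21 for all 59 genes, and 49 encode the common form of this stretch. A related form was found for 6 more, among them Rab38 and its close relatives Rab32 and Rab29. The search asked for tryptophan, aspartate or glutamate, any residue, alanine, glycine, any residue and glutamate, so it did not require the glutamine. Rab7b, Rab28, Rab40b and Rab40c gave no match to this pattern, and forms outside it were not searched for. The 30 bases from the first codon of the stretch are shown for these relatives beside Rab7, which has the common form, with capitals at the 13 positions where the 4 sequences are not all alike.
Rab7: tgggaCaCAgcCggTcaAgaACgGttCCAG
Rab38: tgggaCaTTgcTggTcaAgaAAgAttTGGA
Rab32: tgggaTaTCgcGggAcaGgaACgGttTGGC
Rab29: tgggaTaTTgcAggGcaGgaGCgTttCACA
They were read from GENCODE vM21 transcripts (mm10). The Rab7 bases lie in exon 4 of the transcript at chr6:88005179-88005208 on the minus strand. The others are split by an intron and run over chr7:88430591-88450497 (Rab38, plus strand), chr10:10550940-10557857 (Rab32, minus strand) and chr1:131869992-131870696 (Rab29, plus strand). Rab32, which also serves lysosome-related organelles, averaged 13.8 CPM per kilobase, and Rab29, of the Golgi and lysosomes, 0.738, so Rab38 supplied most of the messenger RNA of this group.

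Where a Rab has close paralogues, 1 copy usually supplied most of the messenger RNA. Rab5c made up between 83.1% and 85.7% of the summed per-kilobase level of the Rab5 genes, which serve early endosome fusion, with Rab5b at 8.86% to 11.6% and Rab5a at 5.13% to 6.44%. Rab11a, the recycling endosome GTPase that works with myosin Vb on oocyte vesicles, made up 93.1% to 96.2% against Rab11b. Rab1b, of transport from endoplasmic reticulum to Golgi, held 67.7% to 74.8% against Rab1a. Rab2a, Rab4a, Rab7 and Rab9 each held at least 97.7% of their subfamily in every library. The shares of Rab2a and Rab4a depend on Rab2b and Rab4b, whose exons largely overlap other genes and whose values are uncertain. Rab6a, Rab27a, Rab33b and Rab39b held all of the counts of theirs.

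Within the Rab3 genes, whose products act in regulated exocytosis, Rab3d held 70.4% and 73.9% (controls) and 73.6% and 78.4% (knockdowns), so the groups overlapped. Rab3b held 12.4% to 18.7% and Rab3a 9.10% to 11.1%. Rab3c, with no counts in either control, held at most 0.105% of the subfamily in a knockdown. The bases that encode the same conserved stretch show how the paralogues, which encode the same residues there, can be told apart in reads. Capitals mark the 8 of 30 positions at which the 4 genes are not all alike.
Rab3a: tgggacacagcAggGcaAgaGCgGtacCgC
Rab3b: tgggacacagcTggGcaAgaGCgGtacCgG
Rab3c: tgggacacagcAggCcaGgaAAgAtacAgG
Rab3d: tgggacacagcAggCcaGgaGCgCtacCgG
All start in exon 2 of the transcript, are split by an intron and run over chr8:70756081-70756473 (Rab3a, plus), chr4:108890533-108923932 (Rab3b, plus), chr13:110181071-110260481 (Rab3c, minus) and chr9:21914955-21915707 (Rab3d, minus) in mm10. Rab3c and Rab3d differed at 4 of these bases and Rab3a and Rab3b at 2. Over whole transcripts, no Rab gene shared more than 0.956% of its 50-base stretches with another Rab gene, the value of Rab4b.

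**Figure D2:**
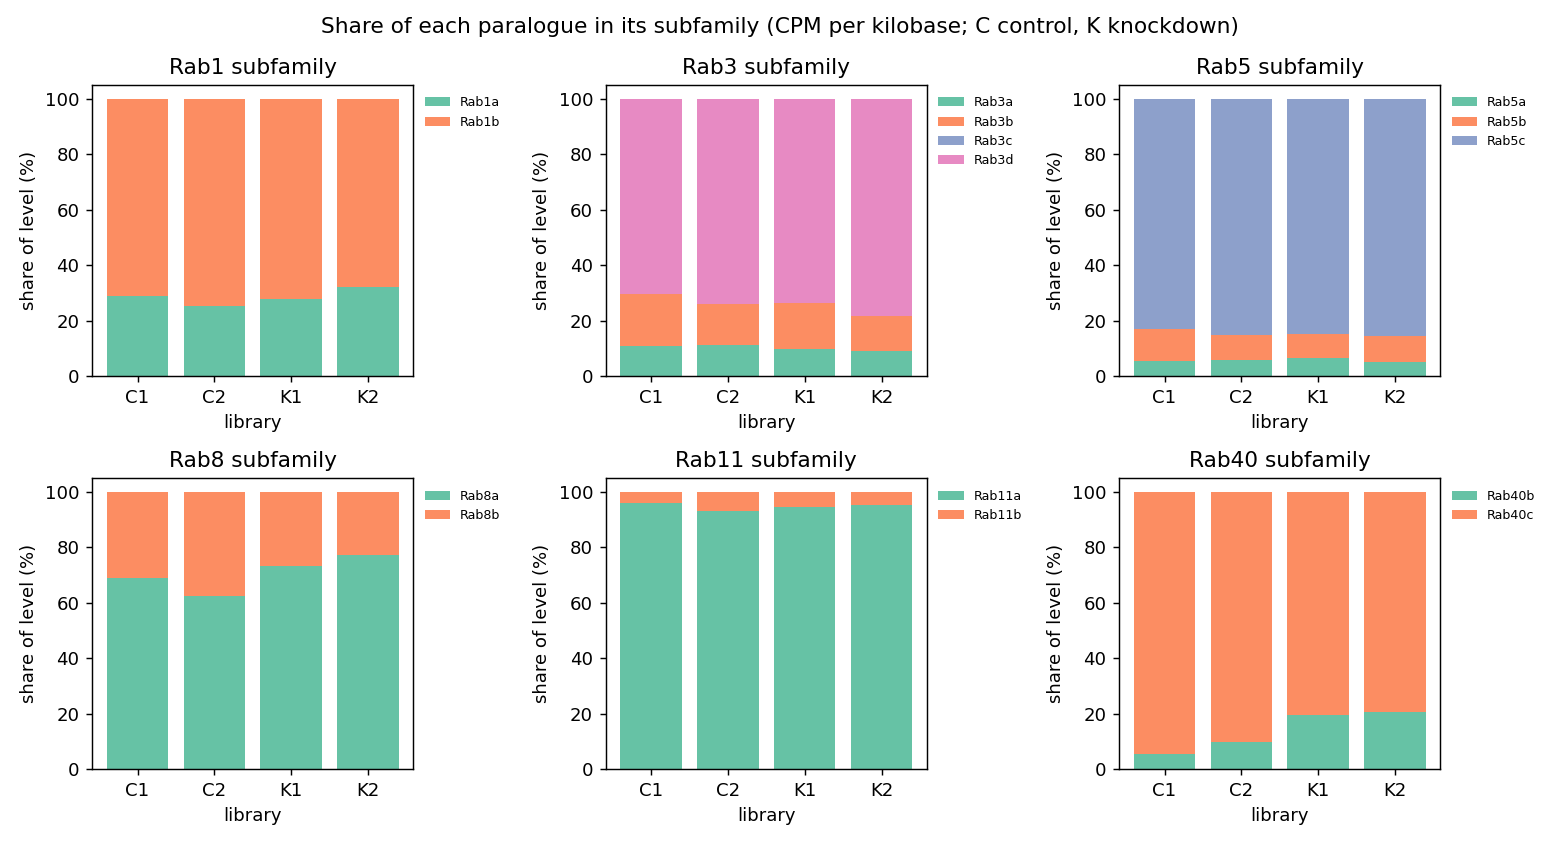
Share of each paralogue in the summed level of its subfamily (percent of CPM per kilobase), with a stacked bar for each control (C1, C2) and knockdown (K1, K2) library. Rab5c and Rab11a hold at least 83.1% and 93.1% of their subfamilies in every library, and the Rab8b share is between 30.9% and 37.4% in the controls and between 22.7% and 26.8% in the knockdowns.

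Other genes and pseudogenes bear on some counts more than Rab paralogues do. Fewer than 5% of the 50-base stretches occurred in transcripts of other genes for 44 of the 59 members. Rab7 shared 12.7%, mostly with the pseudogene Rab7-ps1, and Rab11b shared 13.6%, mostly with Rab11b-ps2. In the deposited gene models 65.0% of the exonic bases of Rab4b lay in another gene on the same strand, mostly Gm21983, and 75.4% of those of Rab43 lay in Gm45140. On the opposite strand, other genes covered 64.0% of Rab2b and 62.4% of Rab24. Strand cannot separate reads in same-strand overlaps, so the values of Rab4b and Rab43 are uncertain in any case. No source used here says whether reads were assigned by strand, so the values of Rab2b and Rab24 are uncertain too. To a lesser degree this holds for Rab20 (25.6%, E230013L22Rik), Rab6a (19.0%, Mrpl48), Rab33b (18.7%, Gm38160) and Rab39b (18.6%, Gm15063), all with opposite-strand overlap.

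The sequence around the transcription start was compared as well. RefSeq promoter windows, 250 bases before to 50 after a start, were matched for 48 of the 59 genes in GRCm38.p6. Those without a window included Rab38, the highest member, and Rab2a, Rab4a and Rab18, all with a mean of at least 10 CPM. The windows of Rab3d and Rab3c, the most abundant and the scarcest Rab3 gene, are shown with capitals at each CpG, of which they hold 26 and 11. CpG content did not follow level within the subfamily, since the window of Rab3b, at 54.5 CPM, held 8 and that of Rab3a, at 22.7 CPM, held 18.
Rab3d: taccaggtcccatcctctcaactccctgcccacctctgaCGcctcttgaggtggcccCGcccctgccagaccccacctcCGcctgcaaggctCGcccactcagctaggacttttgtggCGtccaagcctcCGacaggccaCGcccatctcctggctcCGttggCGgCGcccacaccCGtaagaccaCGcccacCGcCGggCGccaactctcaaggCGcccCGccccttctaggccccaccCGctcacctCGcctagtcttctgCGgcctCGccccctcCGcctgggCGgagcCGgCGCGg
Rab3c: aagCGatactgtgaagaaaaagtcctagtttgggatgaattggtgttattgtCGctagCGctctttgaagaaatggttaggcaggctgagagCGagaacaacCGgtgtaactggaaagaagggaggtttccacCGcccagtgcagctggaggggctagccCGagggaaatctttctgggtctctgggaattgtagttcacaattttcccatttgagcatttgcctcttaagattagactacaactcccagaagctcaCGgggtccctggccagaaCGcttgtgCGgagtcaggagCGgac
They lie at chr9:21918134-21918433 and chr13:110280157-110280456, both on the minus strand. The start in the Rab3d window lies 9 bases from that of the deposited gene model, and the start in the Rab3c window 794 bases. For each Rab gene the window nearest the deposited start was kept. Over the family the median was 20 CpG per window, against 7 over all 32851 windows. That full set was not reduced by gene or limited by level, so the sets are unlike. The Rab median was 25 for the 26 genes with a mean of at least 10 CPM, 16.5 for the 16 with counts below that level and 18 for the 6 at 0. Those 6 were split, with 42 for Rab6b, 38 for Rab15 and 27 for Rab39, and 9 for Rab19, 7 for Rab33a and 6 for Rab42. The letters GGGCGG, on either strand, occurred in 34 of the 48 windows (70.8%) and in 35.7% of all windows. TATAAA occurred in 4 (8.33%, against 13.6% of all). A match describes the letters only.

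No Rab gene passed the test between knockdown and control oocytes. Of the 59 genes 49 had enough counts to be tested, and edgeR's quasi-likelihood test, with Benjamini-Hochberg adjustment at 0.05 over all 15868 tested genes, called 0 of them higher and 0 lower. It called 0.00630% of all tested genes, the single gene Parp12. The smallest adjusted p of a Rab gene was 0.835. Besides the 8 genes at 0, Rab34 and Rab37, with 2 and 20 counts in control replicate 1 and none elsewhere, were not tested. At an unadjusted p under 0.05, 2 Rab genes were higher (2.94% of all tested genes) and 1 was lower (2.57% of all). DESeq2 called 1 of 49 Rab genes, Rab3c, where it called 1.86% of all genes it tested, and limma-voom called 0.

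The fitted log2 fold changes (knockdown over control) of the 49 genes had a median of -0.02, with 22 above 0 and 27 below. Over all 15868 tested genes the median was 0.00, with 8004 above 0 and 7864 below. Both knockdown libraries lay above both controls for 7 Rab genes, where 18.0% of all tested genes did so, and below both for 8, where 16.8% did. Of the 30 members with a mean of at least 10 CPM, 6 had a fitted difference larger than both differences between replicates, namely Rab33b, Rab21, Rab5b, Rab4a, Rab8b and Rab27a, where 23.1% of all genes at that level did. These shares are near the background and are not a result about the family.

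The abundant members had narrow intervals. Over the 49 tested genes, the 95% interval of 28 lay within 2-fold in either direction (46.7% of all tested genes). For all 12 Rab genes over 100 CPM it lay within 1.5-fold (97.8% of all genes at that level), and their log2 fold changes ran from -0.18 to 0.17. Between 10 and 100 CPM the intervals of 16 of 18 lay within 2-fold (81.8% of all), Rab8b and Rab33b being the exceptions. Under 10 CPM the interval of no tested Rab gene lay within 2-fold. There were 13 such genes between 1 and 10 CPM, where 1.70% of all did so, and 6 under 1 CPM (0% of all). Each of these scarce members had an interval that reached a difference of 2-fold or more in at least 1 direction. That of Rab3c, from 1.12 to 16.2 in log2 fold change, lay above 2-fold as a whole. With 0 counts in both controls, its limits depend on the prior count that edgeR adds and do not bound the difference. Among the 12 over 100 CPM, both knockdowns lay above both controls for Rab21 alone (17.3% of all genes at that level) and below both for Rab22a alone (21.3%).

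**Figure D3:**
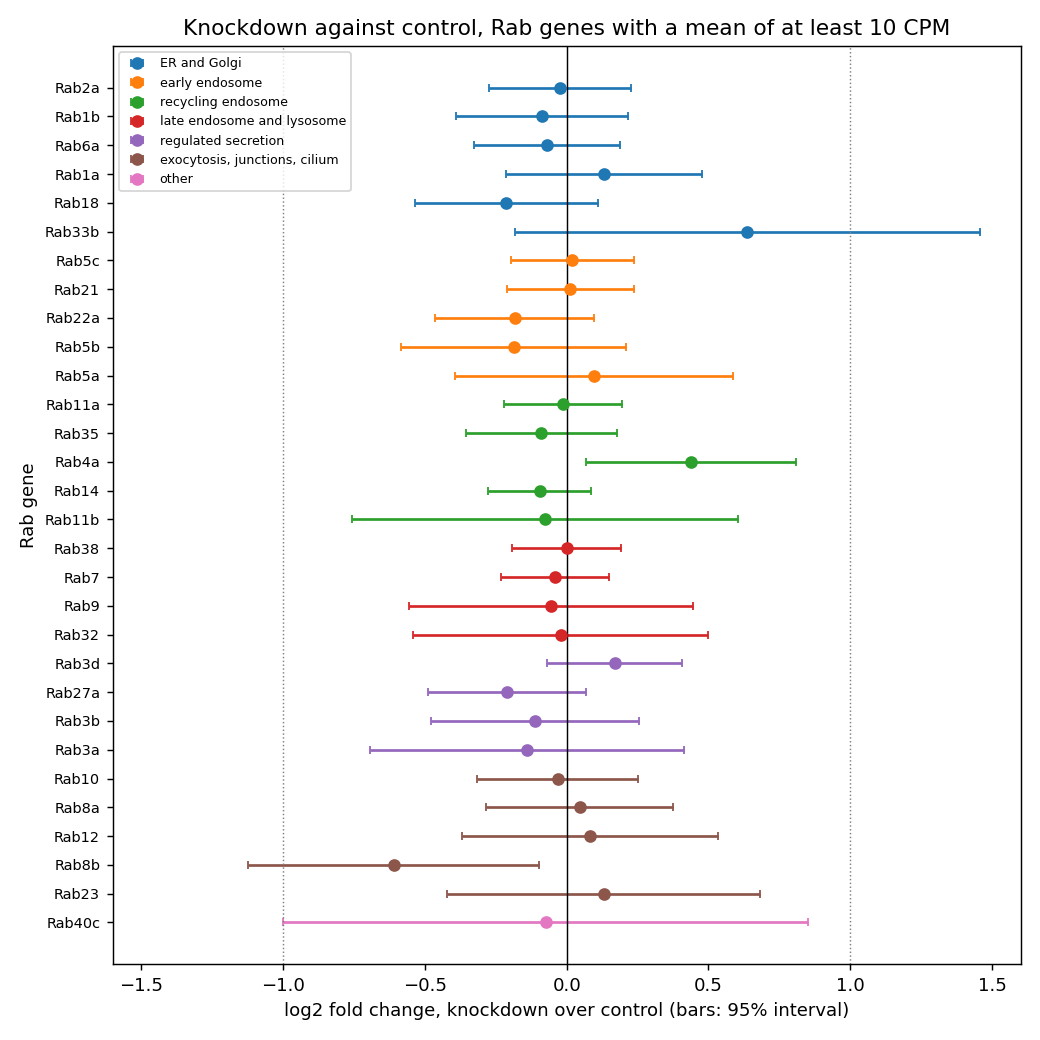
Log2 fold change (knockdown over control) with its 95% interval for the 30 Rab genes with a mean of at least 10 CPM, ordered and coloured by compartment; dotted lines mark 2-fold. Only the intervals of Rab4a and Rab8b leave out 0, and neither gene passes the adjusted threshold.

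Rab4a, which recycles cargo rapidly from early endosomes, had the smallest p among genes above 0 in the knockdown. It stood at 43.8 and 54.5 CPM (controls) and 70.0 and 62.2 CPM (knockdowns), so the groups did not overlap. The log2 fold change was 0.44 (SE 0.17), with a 95% interval from 0.07 to 0.81. Its adjusted p was 0.835 by edgeR's quasi-likelihood test and 0.134 by DESeq2. The paralogue Rab4b, whose exons largely overlap Gm21983, had 0 and 38 counts (controls) and 80 and 56 counts (knockdowns), at most 2.34% of the Rab4 level. Its 2 control libraries differed widely, and its log2 fold change of 1.97 had an interval from -0.81 to 4.74.

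Rab8b, which acts in delivery to the plasma membrane and the cilium, had the smallest p among genes below 0. It stood at 31.1 and 40.7 CPM (controls) and 23.96 and 22.8 CPM (knockdowns), without overlap. The log2 fold change was -0.61 (SE 0.24), with a 95% interval from -1.12 to -0.10. Its adjusted p was 0.835 by edgeR's quasi-likelihood test and 0.0664 by DESeq2. Rab8a, the more abundant paralogue, overlapped between groups, at 68.7 and 67.3 CPM (controls) and 64.8 and 76.7 CPM (knockdowns). The share of Rab8b in the Rab8 level was 30.9% and 37.4% (controls) and 26.8% and 22.7% (knockdowns), a description with no test. In the Rab40 pair, which joins ubiquitin ligases, the scarce Rab40b held 5.53% and 9.78% (controls) and 19.7% and 20.7% (knockdowns), from at most 75 counts in a library.

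Rab3c, best known from regulated exocytosis in neurons, was the one Rab gene called under an alternative. It had 0 counts in both controls, and 45 and 50 counts in the knockdowns. Their mean of 1.23 CPM was at least 17.6-fold higher than the limit of 3 counts per control library. The adjusted p was 0.835 by edgeR's quasi-likelihood test and 0.0274 by DESeq2, and over all alternatives it ran from 0.0274 to 0.994. Among all genes, 17 had no counts in either control and at least 45 in each knockdown, and 22 had the mirror pattern. Scarce Rab genes could have counts in 1 library of a group and none in the other: 6 did so among the controls and 5 among the knockdowns, 9 genes in all. Rab7b, for example, had 50 and 0 counts (controls) and 42 and 0 counts (knockdowns).

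**Figure D4:**
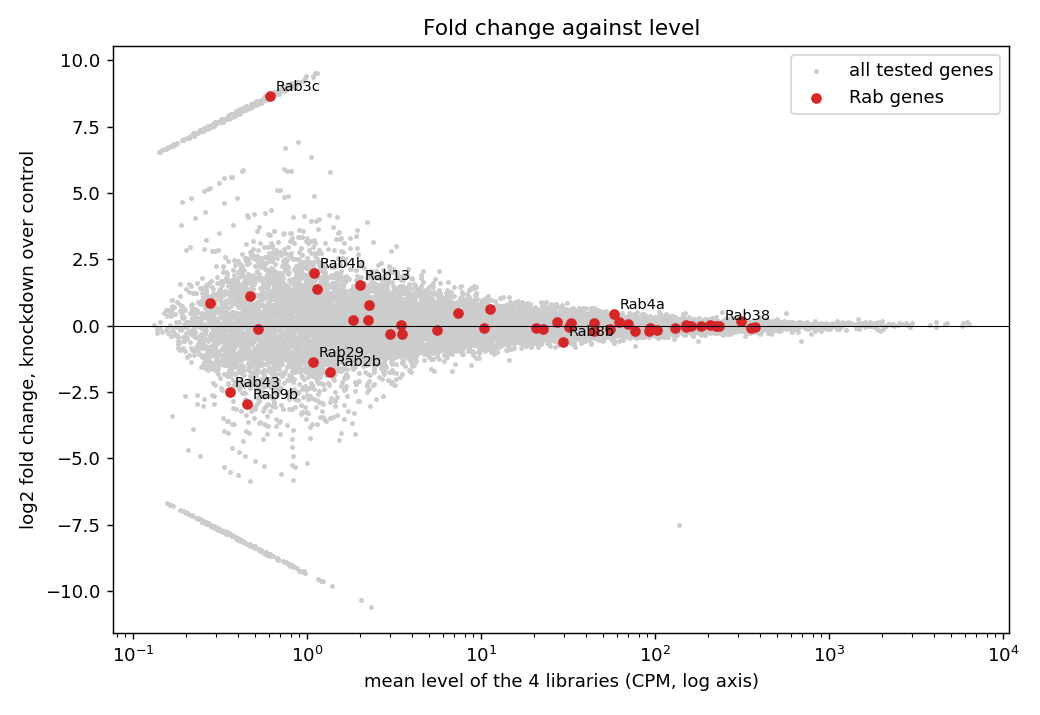
Log2 fold change (knockdown over control) against the mean level in CPM on a log axis, for all tested genes (grey) and Rab genes (red), some of them named. Abundant Rab genes lie close to 0, scarce members scatter within the spread of other scarce genes, and Rab3c lies on the upper line of genes at 0 in both controls.

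Genes of the endoplasmic reticulum and Golgi had 9 tested members with a median log2 fold change of -0.09, and 7 of them lay below 0. Rab2a stood at 149 and 174 CPM (controls) and 147 and 172 CPM (knockdowns). Rab1b, of the first step of secretion, stood at 85.5 and 106.6 CPM (controls) and 91.9 and 88.2 CPM (knockdowns). Rab6a, of traffic within and from the Golgi, stood at 152 and 157 CPM (controls) and 163 and 131 CPM (knockdowns). In all 3 the groups overlapped.

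Rab18, found on the endoplasmic reticulum and lipid droplets, stood at 73.9 and 90.04 CPM (controls) and 68.5 and 73.0 CPM (knockdowns), a log2 fold change of -0.21 (SE 0.15). Rab33b, of the Golgi and autophagy, stood at 10.1 and 7.38 CPM (controls) and 15.5 and 11.6 CPM (knockdowns), a log2 fold change of 0.64 (95% interval -0.18 to 1.46). Neither overlapped between groups, and neither passed the test. Rab2b, uncertain because of its antisense neighbour, had 38 and 134 counts (controls) and 9 and 38 counts (knockdowns).

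Genes of the early endosome had 8 tested members with a median log2 fold change of 0.06, and 6 of them lay above 0. Rab5c, which with its paralogues drives early endosome fusion, stood at 188 and 221 CPM (controls) and 208 and 206 CPM (knockdowns). Rab5a had 1296 and 1449 counts (controls) and 1618 and 1061 counts (knockdowns). Both overlapped between groups. Rab21, which sorts integrins on endosomes, differed least between libraries of the 12 highest genes, at 148 and 149 CPM (controls) and 149 and 150.5 CPM (knockdowns). Both knockdowns lay above both controls there, by a log2 fold change of 0.01 (95% interval -0.21 to 0.24).

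Rab5b stood at 50.2 and 44.7 CPM (controls) and 41.7 and 42.1 CPM (knockdowns), a log2 fold change of -0.19 (SE 0.18). Rab22a, of the early endosome and recycling tubules, stood at 108.2 and 108.5 CPM (controls) and 102.7 and 87.4 CPM (knockdowns), a log2 fold change of -0.18 (SE 0.13). In both genes the knockdowns lay below the controls, and neither passed the test.

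Recycling endosome genes had 8 tested members with a median log2 fold change of -0.08, and 6 of them lay below 0. Rab11a stood at 186 and 181 CPM (controls) and 180.0 and 185 CPM (knockdowns), a log2 fold change of -0.01 (95% interval -0.22 to 0.20). Rab11b stood at 15.1 and 27.6 CPM (controls) and 21.2 and 18.6 CPM (knockdowns), so both knockdowns lay between the controls. Rab35, of endosomes and the plasma membrane, overlapped too, at 129.5 and 138 CPM (controls) and 114 and 139 CPM (knockdowns).

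Late endosome and lysosome genes had 9 tested members with a median log2 fold change of -0.04, and 6 of them lay below 0. Rab38 stood at 235 and 228 CPM (controls) and 235 and 229 CPM (knockdowns), a log2 fold change of 0.00 (95% interval -0.19 to 0.19). Rab7 stood at 404 and 352 CPM (controls) and 360.5 and 377 CPM (knockdowns), a log2 fold change of -0.04 (95% interval -0.23 to 0.15). In both the groups overlapped. Rab9b, the scarce paralogue of a Rab that returns receptors from endosomes to the Golgi, had 56 and 14 counts (controls) and 0 and 8 counts (knockdowns).

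Genes for delivery to the plasma membrane, junctions and the cilium had 7 tested members with a median log2 fold change of 0.05, and 5 of them lay above 0. Rab10 of exocytosis stood at 231 and 223 CPM (controls) and 259 and 183 CPM (knockdowns), so its lowest and highest values were both knockdowns. Rab13, of epithelial junctions, had 32 and 60 counts (controls) and 200 and 40 counts (knockdowns), the high value coming from knockdown replicate 1. Without that library its log2 fold change went from 1.51 to 0.065.

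Genes of regulated secretion, a compartment that in oocytes includes the cortical granules, had 6 tested members with a median of 0.03 in log2 fold change, and 3 of them lay above 0. Rab27a, which tethers secretory granules, stood at 95.3 and 101.8 CPM (controls) and 82.9 and 87.7 CPM (knockdowns). Both knockdowns lay below both controls, with a log2 fold change of -0.21 (SE 0.13), and edgeR's quasi-likelihood test gave an adjusted p of 0.847. Rab3a, studied for its part in cortical granule exocytosis, stood at 21.9 and 25.6 CPM (controls) and 20.8 and 22.4 CPM (knockdowns). Its groups overlapped, as did those of Rab3d and Rab3b, whereas Rab3c had counts in the knockdowns alone. Rab3d stood at 264 and 322 CPM (controls) and 297 and 363 CPM (knockdowns), with a log2 fold change of 0.17 (95% interval -0.07 to 0.41). Rab3b stood at 58.8 and 54.5 CPM (controls) and 56.2 and 48.5 CPM (knockdowns).

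The genes that act on Rab proteins were also without a call by edgeR. For the delivery of Rab proteins to membranes (prenylation and the cytosolic chaperones) all 8 listed genes were tested, with a median log2 fold change of 0.08 and 6 above 0. The members with the smallest p were Praf2 and Chml. Praf2, a prenylated Rab acceptor, had 54 and 30 counts (controls) and 157 and 136 counts (knockdowns). Chml, a Rab escort protein, had 12.1 ± 1.46 CPM (SD, n = 2) as controls' mean and 8.35 ± 2.48 CPM as knockdowns' mean. Both were without overlap between groups, and their adjusted p by edgeR's quasi-likelihood test was 0.835 and 0.898. Gdi2, the widely expressed GDP dissociation inhibitor, was named after its values were seen, and had 494 ± 27.6 CPM (controls) and 498 ± 1.75 CPM (knockdowns).

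Of 34 GEF genes 33 were tested, with 9 above 0 and 24 below, and a median log2 fold change of -0.10. Rabif, a guanine nucleotide release factor and Rab chaperone, had 62.2 ± 6.501 CPM (controls, SD, n = 2) and 83.0 ± 2.26 CPM (knockdowns). Sbf1, of the DENN domain family, had 94.2 ± 5.52 CPM (controls) and 73.8 ± 4.42 CPM (knockdowns). The TRAPP tethering complexes, which act as GEFs for Rab1 and Rab11 proteins, had 15 tested members with a median of -0.08. Their smallest p values belonged to the subunit genes Trappc5 and Trappc3l. Trappc5 had 73.1 ± 0.0490 CPM (controls) and 65.8 ± 2.41 CPM (knockdowns). Trappc3l had 65.4 ± 0.452 CPM (controls) and 58.5 ± 5.94 CPM (knockdowns). None of these 4 genes passed the adjusted threshold by edgeR.

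Of 42 GAP genes 35 were tested, with 17 above 0 and 18 below, and a median log2 fold change of -0.04. Tbc1d22b, which like most Rab GAPs carries a TBC domain, had 117 ± 0.608 CPM (controls, SD, n = 2) and 93.7 ± 2.05 CPM (knockdowns). Tbc1d8 had 208 ± 11.3 CPM (controls) and 176 ± 15.8 CPM (knockdowns). Among 43 effectors 38 were tested, with a median of -0.11, 14 above 0 and 24 below. Both knockdowns lay below both controls for 13 of the 38, where 16.8% of all tested genes did so, and above both for 4 (18.0% of all). In the other lists 1 lay below and 4 above (delivery, 8 tested), and 9 below and 4 above (GEFs, 33 tested). For TRAPP (15 tested) it was 4 below and 0 above, and for GAPs (35 tested) 3 below and 4 above. The smallest p values of the effector list belonged to 2 partners of Rab11 proteins, 1 above 0 and 1 below.

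Rab11fip4 stood at 74.6 and 91.8 CPM (controls) and 58.9 and 60.5 CPM (knockdowns), a log2 fold change of -0.48 (SE 0.16). Rab11fip2, which links Rab11 to myosin Vb, stood at 5.22 and 4.76 CPM (controls) and 10.3 and 12.6 CPM (knockdowns), a log2 fold change of 1.18 (SE 0.44). In both genes the groups did not overlap. By edgeR's quasi-likelihood test the adjusted p was 0.835 for both and for Tbc1d22b. DESeq2 called all 3, with adjusted p of 0.0261 for Rab11fip4, 0.0236 for Rab11fip2 and 0.0194 for Tbc1d22b.

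**Figure D5:**
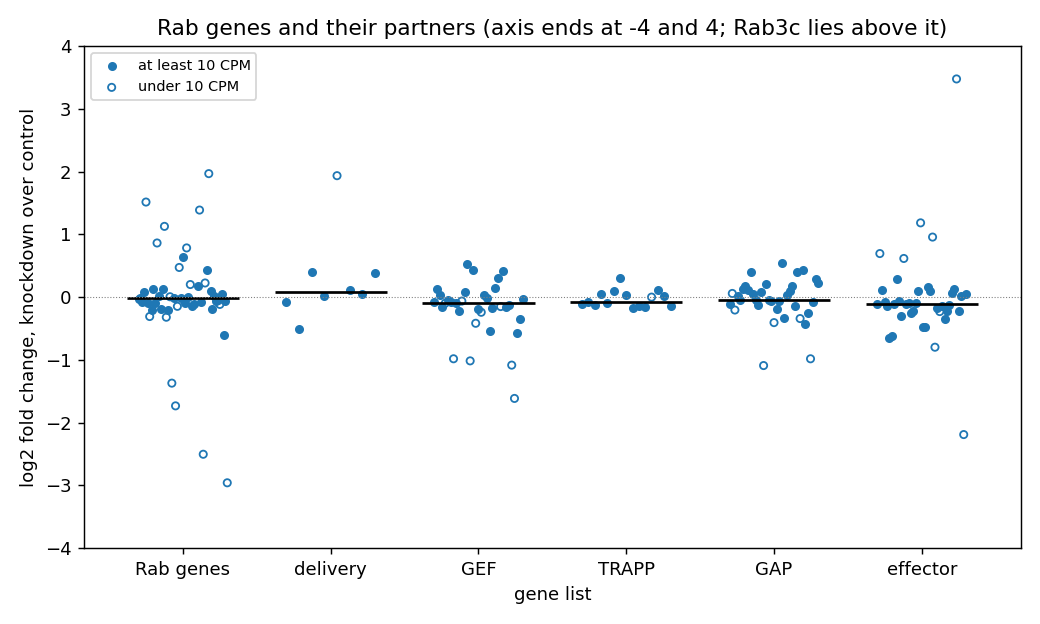
Log2 fold change (knockdown over control) of tested Rab genes and of 5 lists of Rab partners, a circle for each gene, filled where the mean is at least 10 CPM, in alphabetical order within its list; lines are medians, and Rab3c lies above the axis. The medians lie between -0.11 for effectors and 0.08 for delivery genes, and the genes beyond 1 in either direction are all under 10 CPM.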

How the data were processed

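Counts per gene were deposited by the authors as raw whole numbers for 4 libraries. DESeq2 1.28.1, featureCounts 2.0.0, STAR 2.7.5b and Trim Galore 0.6.4, beside the build mm10, appear in the submitters' processing notes, with no role or order. Treatment of strand and of reads with several alignments: not given in the sources used here. Per the file headers, the table gives exon coordinates and summed exon length, the other deposited value used, for levels per kilobase. Start and end matched GENCODE vM21 for 42 of the 59 Rab genes. The table had 0 columns of samples outside the series and 0 entries without a gene name.

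Groups and replicate numbers came from the sample titles. In R 4.3.3, edgeR 4.0.16 was run with filterByExpr (minimum count 10, total 15), TMM factors, estimateDisp, glmQLFit (robust, with the fit introduced in this edgeR series) and a two-sided glmQLFTest with group as the only term, over all genes, at an adjusted p of 0.05. Each SE is the absolute log2 fold change over the square root of the F statistic of that test. Intervals are 95%, built from this SE and the t distribution, and cover the spread between libraries. Limits for a 0 take 3 counts and cover counting error only. An exact permutation test of 2 against 2 libraries cannot go below 0.333, so none is given. Alternatives were other scaling factors and filters, leaving out each library, a block for the replicate number, DESeq2 1.42.0 (alpha at 0.05, otherwise default), limma-voom (limma 3.58.1) and edgeR's legacy fit, which was added after the data were seen. The tests were tried on simulated counts first. These were drawn with the dispersions that edgeR estimated from these data, for genes past edgeR's filter. They therefore compare the tools under edgeR's own model only. With no gene changed, edgeR and limma-voom called 0 genes and DESeq2 called 78. Of genes changed 2-fold, edgeR recovered 0 of 77 at 1 to 10 CPM, 33 of 81 at 10 to 100 CPM and 41 of 42 over 100 CPM. DESeq2 recovered 3, 41 and 41 of the same genes, with 75 false calls against 0 for edgeR. Replicates of each group differed by far more than sampling noise, with a chi-square per gene of 38.0 for the controls and 32.6 for the knockdowns.

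The Rab genes, the lists of compartments and partners, and the rule for named genes were chosen with earlier results of these data known. The rule named Parp12, the 12 Rab genes highest per kilobase, the 6 with the smallest p in each direction, any called under an alternative, the Rab3, Rab5, Rab11 and Rab27 subfamilies and 2 genes per partner list. Rab7b, Rab8a, Rab29, Rab32, Rab40b and Gdi2 fall outside it and were chosen after their values were seen. Sequences came from GENCODE vM21 transcripts and RefSeq promoters (GRCm38.p6).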

Additional observations from a re-analysis of the deposited data

How the results depend on the processing

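The count of Rab genes called was 0 under the alternatives run, except for 1 with DESeq2, and the smallest adjusted p of a Rab gene ran from 0.0274 with DESeq2 to 0.994 with edgeR's legacy fit. Over all genes, 1 was called with edgeR, 8 when genes had to reach 1 CPM in both libraries of either group (12731 genes tested), 305 with DESeq2 and 0 with limma-voom, where Parp12 had a log2 fold change of -7.73 and an adjusted p of 0.280. Leaving out 1 library gave between 1 and 2 called genes (2 without knockdown replicate 1), 0 Rab genes, and Rab medians from -0.060 without knockdown replicate 1 to 0.010 without control replicate 1. In those fits the lone library of a group is assumed to vary like the other group. With the replicate block, 1 gene and 0 Rab genes were called and the Rab median was -0.02. Deviations of same-numbered libraries correlated at 0.00802 over tested genes and 0.192 over tested Rab genes, and the design has only 2 pairs, so the numbers were not taken to pair the libraries. The Rab median with Rab3c at its bound was also -0.02.

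Calls gained with DESeq2 were Rab3c (log2 fold change 8.16), Rab11fip4 (-0.48), Rab11fip2 (1.20) and Tbc1d22b (-0.33). On counts simulated under edgeR's model with no gene changed, DESeq2 called 78 genes. Whether the calls gained here are false was not tested. For Rab3c the fitted value depends on the prior count and is no bound. Members near 0 changed sign: Rab38 had -0.00093 with median-of-ratios factors, -0.0036 with upper-quartile factors, -0.00027 with the stricter filter and -0.00062 with DESeq2. Over the fits that left out 1 library the log2 fold changes ran from -0.23 to 0.063 for Rab1b, -0.13 to 0.090 for Rab2a, -0.11 to 0.25 for Rab5a, -0.081 to 0.13 for Rab5c, -0.24 to 0.071 for Rab6a, -0.15 to 0.075 for Rab7, -0.31 to 0.19 for Rab10, -0.045 to 0.022 for Rab11a, -0.45 to 0.39 for Rab11b, -0.23 to 0.054 for Rab35 and -0.032 to 0.036 for Rab38. None of these values passed the threshold in either direction. With the stricter filter Rab2b and Rab9b were not tested. The cause of these changes was not tested. None of the 19 tested Rab genes under 10 CPM had an interval within 2-fold, and how much of that width comes from depth was not tested.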
